A study of Mus musculus with 17 samples.

Results

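Cd200r1, Cd200, Gm15638, Plcxd2, Cd96 and Cmss1 are 6 genes that lie on mouse chromosome 16 within 10 Mb of Cblb. They were chosen by their knockout against wild-type differences in RNA level in these same libraries of CD8+ T cells, with Cd200 added as the ligand of the protein that Cd200r1 encodes. They are 6 of the 53679 gene identifiers in the count files, and 6 of the 77 genes of that stretch with enough reads to be tested. The values for knockout against wild type are therefore given as a description with no test, while the responses to stimulation within each genotype were tested, on the same libraries.

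Gene counts came from RNA sequencing of 17 libraries. The CD8+ T cells were from C57BL/6 mice that were wild type (WT) or knockout for Cblb (KO). Within each genotype they were left unstimulated, were given anti-CD3, or were given anti-CD3 together with anti-CD28, called both antibodies here. Sample titles give 12 h for the stimulated libraries and no time for the unstimulated ones. A response to stimulation may therefore include time in culture, which was not tested. Anti-CD3 engages the T cell receptor complex, and anti-CD28 adds the costimulatory signal. Each group had 3 libraries, except WT with both antibodies, of which replicates 2 and 3 were analysed here. The labels state that the cells were nearly all CD8+, do not say which part of Cblb was removed or how the allele was made, and do not say whether replicates came from separate animals. P-values therefore measure the spread between these libraries, which may be technical.

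The product of Cblb, Cbl-b, attaches ubiquitin to signalling proteins and restrains T cell activation. Genes that lie near a targeted gene travel with it when a knockout line is crossed, so a stretch of the chromosome around the altered allele can keep the DNA of the strain or cells in which the allele was made. These libraries hold 1 KO genotype and no other allele, so differences that come from linked DNA and differences that follow loss of Cbl-b cannot be told apart by this design. CD200 is a membrane glycoprotein of the immunoglobulin superfamily that engages CD200R1, an inhibitory receptor best known on myeloid cells and also found on T cells. The receptor signals through the adaptors DOK2 and DOK1 and the RAS GTPase activating protein encoded by Rasa1. CD96 is an immunoglobulin superfamily receptor of T cells and NK cells that binds the poliovirus receptor and shares ligands with TIGIT and CD226. Plcxd2 encodes a protein with a phosphatidylinositol-specific phospholipase C X domain, Gm15638 is an antisense noncoding RNA gene, and Cmss1 encodes the homologue of a yeast protein associated with the small ribosomal subunit.

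On GRCm38 with GENCODE M21 annotation, 5 of the 6 genes lie before Cblb (chr16:52031225-52208048, plus strand) and 1 lies after it. Cd200r1 (ENSMUSG00000022667, chr16:44765736-44794978, plus strand) is 7.24 Mb from the Cblb gene body. Cd200 (ENSMUSG00000022661, chr16:45382135-45409053, minus strand) is 6.62 Mb away. Gm15638 (ENSMUSG00000085826, chr16:45945606-45971370, plus strand), Plcxd2 (ENSMUSG00000087141, chr16:45959263-46010218, minus strand) and Cd96 (ENSMUSG00000022657, chr16:46035657-46120251, minus strand) follow one another at 6.06, 6.02 and 5.91 Mb. Cmss1 (ENSMUSG00000022748, chr16:57302000-57606864, minus strand) lies 5.09 Mb on the other side. Counts are over all exons of a gene. Gm15638 and Plcxd2 overlap on opposite strands by 12108 bp of gene body, with 0 bp of exon in common, and Plcxd2 ends 25.4 kb before Cd96 begins. Cmss1 overlaps Filip1l on the opposite strand by 220034 bp, also with 0 bp of exon in common. The kit marks strand, but how strand was set in the counting is not given in the sources used here, so reads of overlapping genes could have been divided wrongly.

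The sequence just before the start of a gene is where much of its regulation by stimulation is read, so the 250 bases before the RefSeq start (GRCm38.p6) are shown for 3 genes that responded and for 1 that passed no test of a response. Cd200 and Cmss1 rose on stimulation, Cd96 fell, and Gm15638 passed in none of its 4 responses. Sequences are written 5′ to 3′ on the strand of the gene, with matches to the NFAT core GGAAA (either strand) in capitals. They cover chr16:45409054-45409303 for Cd200, chr16:46120249-46120498 for Cd96 and chr16:57606868-57607117 for Cmss1, all on the minus strand, and chr16:45945356-45945605 for Gm15638, on the plus strand.
Cd200: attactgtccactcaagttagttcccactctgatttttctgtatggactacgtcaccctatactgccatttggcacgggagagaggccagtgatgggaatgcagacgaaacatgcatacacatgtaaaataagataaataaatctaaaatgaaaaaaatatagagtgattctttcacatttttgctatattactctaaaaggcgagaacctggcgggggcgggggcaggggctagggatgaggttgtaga
Cd96: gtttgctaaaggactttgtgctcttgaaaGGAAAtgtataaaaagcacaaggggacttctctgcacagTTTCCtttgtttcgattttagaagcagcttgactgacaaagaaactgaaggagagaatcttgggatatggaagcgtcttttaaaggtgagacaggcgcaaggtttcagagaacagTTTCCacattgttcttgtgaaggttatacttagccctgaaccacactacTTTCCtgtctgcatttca
Cmss1: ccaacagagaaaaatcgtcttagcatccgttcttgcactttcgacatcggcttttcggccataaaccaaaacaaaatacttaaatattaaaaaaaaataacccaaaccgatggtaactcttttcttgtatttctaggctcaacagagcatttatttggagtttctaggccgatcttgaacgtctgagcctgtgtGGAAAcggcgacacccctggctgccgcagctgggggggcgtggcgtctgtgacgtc
Gm15638: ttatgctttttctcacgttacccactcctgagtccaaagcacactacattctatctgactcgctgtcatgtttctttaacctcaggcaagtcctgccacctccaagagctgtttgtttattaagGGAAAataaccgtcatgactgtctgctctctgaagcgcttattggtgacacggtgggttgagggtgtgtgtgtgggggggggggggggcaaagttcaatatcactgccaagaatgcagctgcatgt
RefSeq promoter entries matched 5 of the 6 genes. The window of Cd96 held 4 matches to GGAAA, those of Cmss1 and Gm15638 held 1 each, and those of Cd200 and Plcxd2 held 0. Of 32851 promoter windows of the same length, 55.6% held at least 1 such match on either strand. The AP-1 site TGANTCA (6.75% of windows), the cAMP response element TGACGTCA (1.55%) and the E-box CACGTG (6.02%) matched none of the 5, so no matches overlapped. A match is a description of these letters and does not show binding.

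Library totals ran from 16635826 to 38269033 reads, apart from 160059285 in KO unstimulated replicate 2. Cblb itself was at 139.5 to 190.1 counts scaled to the library total (CPM) in WT libraries and at 63.9 to 95.9 CPM in KO libraries, so every KO library was below every WT library and none was at 0. The summed level of 5 CD8 T cell markers (Cd3e, Cd3d, Cd8a, Cd8b1, Trac) was 1505 to 2948 CPM. Sums of markers of other cells were lower: 1.23 to 3.53 CPM for 3 CD4 T cell genes (Foxp3 up to 2.16, Cd4 up to 0.292), 3.60 to 13.5 CPM for 5 NK cell genes (Klre1 up to 7.19, Klrb1c up to 4.02, Ncr1 up to 0.195), 1.47 to 3.95 CPM for 6 myeloid genes (Itgam up to 1.98) and 7.34 to 17.8 CPM for 5 dendritic cell genes (Zbtb46 up to 16.4, Clec9a up to 0.0484). Of the B cell genes, Ms4a1 reached 2.20 CPM, Cd79a 1.91 CPM and Ighm 411 CPM. Some of these sums reach or pass the levels of Cd200r1 (0.277 to 3.28 CPM) and Cmss1 (1.52 to 8.74 CPM). The same holds for Gm15638 (2.35 to 10.1 CPM) and for Cd200 in unstimulated cells (1.91 to 4.12 CPM). The part of other cells in the results was not tested.

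Cd200 rose 2.38-fold in WT cells and 10.99-fold in KO cells given anti-CD3, and its KO level was below WT before stimulation and above WT after it. In unstimulated cells Cd200 was at 4.12, 2.93 and 2.60 CPM in the WT libraries and at 1.91, 2.12 and 2.07 CPM in the KO libraries. With anti-CD3 it was at 5.92, 10.4 and 6.68 CPM in WT and at 21.2, 20.3 and 26.1 CPM in KO. Given both antibodies, Cd200 was at 3.84 and 6.17 CPM in WT and at 13.0, 21.98 and 26.5 CPM in KO. All unstimulated KO libraries were lower than all unstimulated WT libraries, and all stimulated KO libraries were higher than all stimulated WT libraries. Of all genes, 2.55% had groups that did not overlap and lay in opposite directions in unstimulated cells and with anti-CD3, and 18.4% in unstimulated cells and with both antibodies. The lowest stimulated KO library, 13.0 CPM, exceeded the highest of all WT libraries, 10.4 CPM. The rise on anti-CD3 was 1.25 ± 0.27 (log2 fold change ± SE) in WT (n = 3 and 3, adjusted p = 0.00266) and 3.46 ± 0.29 in KO (adjusted p = 9.54e-08), by edgeR's quasi-likelihood test with Benjamini-Hochberg adjustment over all 16246 genes tested, used for every adjusted p below. With both antibodies the KO response was 3.32 ± 0.29 (adjusted p = 1.69e-07). The WT response was 0.62 ± 0.31 with a 95% interval of −0.04 to 1.28 and did not pass the test (adjusted p = 0.132), and its WT groups overlapped.

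The KO minus WT difference of Cd200 was −0.67 ± 0.29 log2 units in unstimulated cells, 1.54 ± 0.25 with anti-CD3 and 2.03 ± 0.31 with both antibodies, or 0.630, 2.92 and 4.08 times the WT level. Without WT unstimulated replicate 1 the first of these was −0.44. The difference between the KO and the WT response was 2.21 ± 0.39 log2 units for anti-CD3 and 2.70 ± 0.42 for both antibodies, given without a test because Cd200 was added with its KO against WT values known. In the order of levels, unstimulated KO was lowest, unstimulated WT next, then WT with both antibodies and WT with anti-CD3, and the stimulated KO groups were highest. Neighbours in this order overlapped in their libraries for unstimulated WT against WT with both antibodies, for the 2 stimulated WT groups, and for the 2 stimulated KO groups. In bulk RNA, more cells with a transcript and more transcript per cell cannot be told apart.

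Cd200r1, the gene of the CD200 receptor, went the other way: it fell to 0.510 of its unstimulated level with anti-CD3 in WT and to 0.523 in KO. Unstimulated cells had 2.88, 2.17 and 3.28 CPM in WT and 1.52, 1.31 and 1.55 CPM in KO. With anti-CD3 they had 1.76, 1.27 and 1.26 CPM in WT and 0.678, 0.900 and 0.695 CPM in KO. With both antibodies they had 0.831 and 1.13 CPM in WT and 0.277, 0.628 and 0.469 CPM in KO. KO libraries lay below WT libraries in each of the 3 states, without overlap. This is a low gene, with 5 to 198 reads per library, and the standard deviation was 9.004% to 38.3% of the mean within groups, against 3.97% to 14.7% for Cd96.

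The fall of Cd200r1 on anti-CD3 was −0.97 ± 0.26 (log2, SE) in WT (adjusted p = 0.0104) and −0.94 ± 0.28 in KO (adjusted p = 0.0149). Each of these calls was lost on leaving out a single library: WT anti-CD3 replicate 2 (adjusted p = 0.0509), KO anti-CD3 replicate 1 (0.0524) or KO anti-CD3 replicate 3 (0.0624). With both antibodies the fall was −1.49 ± 0.31 in WT (adjusted p = 0.00183) and −1.64 ± 0.31 in KO (adjusted p = 0.000487). KO minus WT, the difference was −0.94 ± 0.26 in unstimulated cells, −0.91 ± 0.28 with anti-CD3 and −1.08 ± 0.36 with both antibodies. With a correction for GC content, described below, the first of these was −0.62 and the last −1.37. The groups ran, from high to low, as unstimulated WT, unstimulated KO, WT anti-CD3, WT both antibodies, KO anti-CD3 and KO both antibodies, of which unstimulated KO overlapped WT anti-CD3, and WT both antibodies overlapped KO anti-CD3. The summed level of the 4 mast cell and basophil markers, cells in which CD200 receptors are also known, was 0.294 to 2.46 CPM over the 17 libraries, and that of the 6 myeloid markers was 1.47 to 3.95 CPM. These sums are of the same size as Cd200r1 itself.

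**Figure D1:**
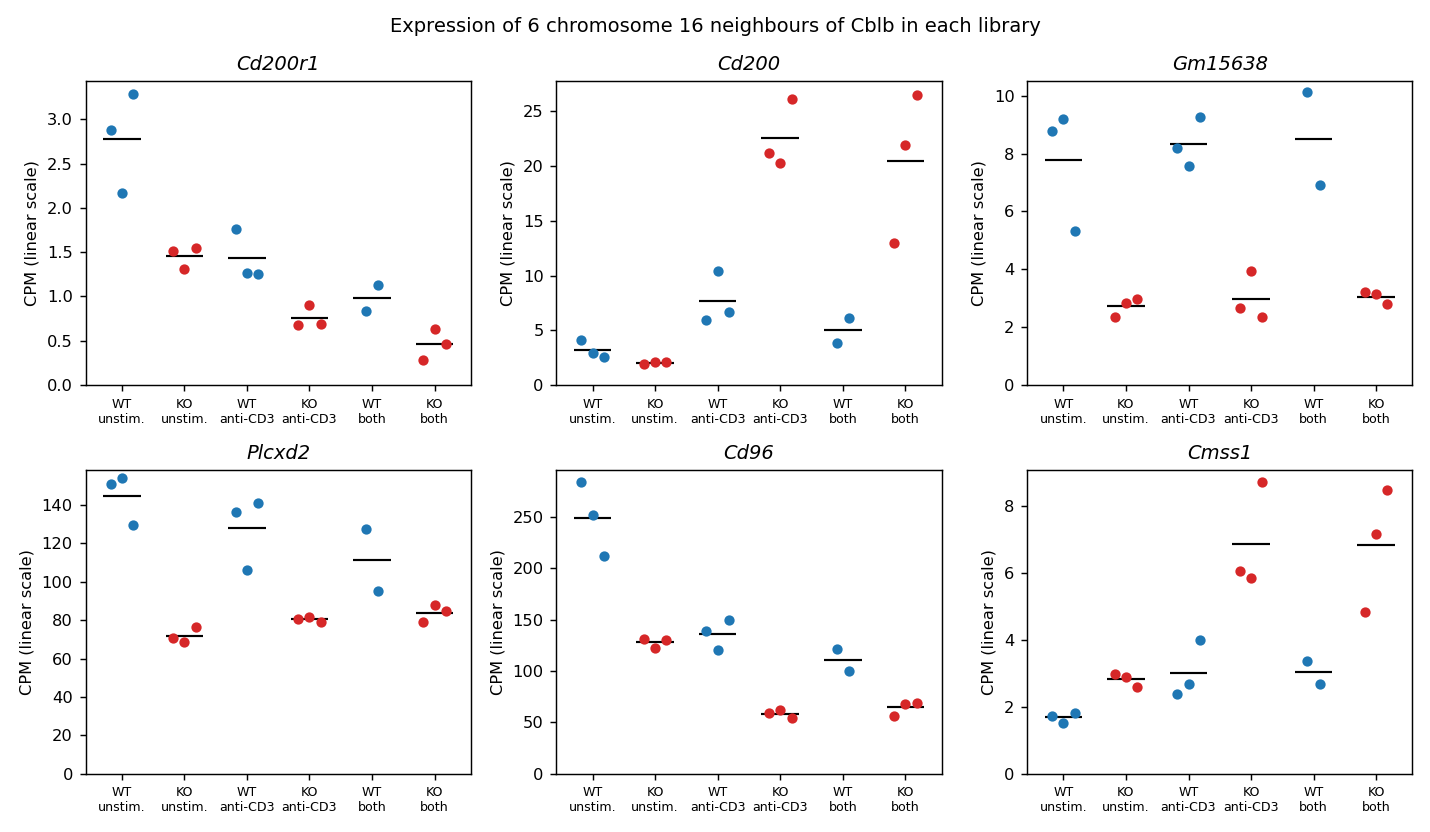
CPM (linear axis from 0) of the 6 genes in each of the 17 libraries, by group; points are libraries, blue for WT and red for KO, and black bars are group means. Cd96, Plcxd2, Gm15638 and Cd200r1 are lower in KO than in WT in each state, Cmss1 is higher, and Cd200 runs from 1.91 CPM in an unstimulated KO library to 26.5 CPM in a KO library given both antibodies.

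Cd96 had the highest level per kilobase of exon of the 6 genes in all 6 groups, and was lower in KO than in WT and lower after stimulation than before. Unstimulated cells had 284, 252 and 211 CPM in WT and 131, 122 and 131 CPM in KO. With anti-CD3 they had 139, 120.4 and 149.5 CPM in WT and 59.0, 61.7 and 54.5 CPM in KO. With both antibodies they had 122 and 100.3 CPM in WT and 56.4, 68.0 and 69.0 CPM in KO. The KO and WT libraries did not overlap in any state, and unstimulated KO libraries were at about the level of WT libraries given anti-CD3. Stimulated KO libraries, at most 69.0 CPM, were below every other library.

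The fall of Cd96 on anti-CD3 was −0.87 ± 0.12 (log2, SE) in WT (adjusted p = 3.14e-05) and −1.13 ± 0.12 in KO (adjusted p = 1.26e-06). The fall with both antibodies was −1.17 ± 0.14 in WT (adjusted p = 8.24e-06) and −0.99 ± 0.12 in KO (adjusted p = 5.86e-06). In each case all stimulated libraries were below all unstimulated ones. KO minus WT, Cd96 differed by −0.96 ± 0.12 in unstimulated cells, −1.22 ± 0.12 with anti-CD3 and −0.78 ± 0.13 with both antibodies, or 0.513, 0.428 and 0.581 times the WT level. With the GC correction these were −0.77, −1.20 and −0.998. In order of level, unstimulated WT was highest, followed by WT anti-CD3 and unstimulated KO, which overlapped. WT with both antibodies came next, its highest library just below the lowest unstimulated KO library but above the lowest WT anti-CD3 library. KO with both antibodies and KO anti-CD3 came last and overlapped.

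Plcxd2 and Gm15638, the coding gene and the antisense gene that overlap, were both lower in KO in each state, and neither showed a large response to stimulation. Plcxd2 was at 151, 154 and 129.6 CPM in unstimulated WT and at 70.5, 68.6 and 76.3 CPM in unstimulated KO. With anti-CD3 it was at 137, 106 and 141 CPM in WT and at 80.5, 81.8 and 79.1 CPM in KO. Plcxd2 with both antibodies was at 128 and 94.97 CPM in WT and at 78.8, 88.1 and 84.8 CPM in KO. No KO library reached the lowest WT library of any state, 94.97 CPM. The KO minus WT difference of Plcxd2 was −1.01 ± 0.12 log2 units in unstimulated cells, −0.67 ± 0.12 with anti-CD3 and −0.41 ± 0.13 with both antibodies. With the GC correction the 3 values were −0.79, −0.62 and −0.63, so the step from anti-CD3 to both antibodies was no longer there. Without WT both-antibody replicate 2 the last difference was −0.20.

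Of the 4 responses of Plcxd2 to stimulation, 1 passed the test: a fall of −0.38 ± 0.13 in WT with both antibodies (adjusted p = 0.0346). It was lost with the GC correction (−0.19, adjusted p = 0.259), with the replicate number as a block (−0.38, adjusted p = 0.051), without WT both-antibody replicate 3 (−0.18, adjusted p = 0.425), without WT unstimulated replicate 1 (adjusted p = 0.0825) and without WT unstimulated replicate 2 (adjusted p = 0.0973). The value in KO with both antibodies was 0.23 ± 0.12 with a 95% interval of −0.02 to 0.47 (adjusted p = 0.128). In WT all libraries with both antibodies were below, and in KO all were above, the unstimulated ones, as in 9.02% of all genes. The response to anti-CD3 alone was −0.18 ± 0.12 in WT (adjusted p = 0.285) and 0.16 ± 0.12 in KO (adjusted p = 0.294). In order of level the WT groups were unstimulated, anti-CD3 and both antibodies, each overlapping the next, and the KO groups followed in the reverse order, with the 2 stimulated KO groups overlapping.

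Gm15638 was at 8.78, 9.20 and 5.32 CPM in unstimulated WT and at 2.36, 2.85 and 2.98 CPM in unstimulated KO. With anti-CD3 it was at 8.19, 7.57 and 9.27 CPM in WT and at 2.66, 3.94 and 2.35 CPM in KO. Given both antibodies, Gm15638 was at 10.1 and 6.90 CPM in WT and at 3.22, 3.14 and 2.81 CPM in KO. The lowest WT library of any state, 5.32 CPM, was above the highest KO library, 3.94 CPM, and within a genotype the 3 states overlapped. The KO level was 0.351, 0.353 and 0.360 times the WT level in unstimulated cells, with anti-CD3 and with both antibodies, a KO minus WT difference of −1.51 ± 0.23, −1.50 ± 0.23 and −1.48 ± 0.25 log2 units. With the GC correction these were −1.20, −1.45 and −1.73, and without WT both-antibody replicate 2 the last was −1.19. None of the 4 responses to stimulation passed the test, by edgeR's adjusted p (0.617 to 0.805), by its unadjusted p or by DESeq2. The values were 0.09 to 0.16 log2 units with 95% intervals from −0.40 to 0.67, so a change within those limits is not excluded. After correction for GC content they were 0.09 and 0.33 in WT and −0.16 and −0.20 in KO, for anti-CD3 and both antibodies, and none passed. Gm15638 had 42 to 431 reads per library and Plcxd2 1180 to 10375, and their log2 CPM had a Pearson r of 0.907 over the 17 libraries, which share the difference between genotypes.

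Cmss1 was higher in KO than in WT in each state and rose on stimulation in both genotypes. Unstimulated cells had 1.72, 1.52 and 1.81 CPM in WT and 2.98, 2.91 and 2.59 CPM in KO. With anti-CD3 they had 2.39, 2.69 and 3.99 CPM in WT and 6.06, 5.85 and 8.74 CPM in KO. With both antibodies they had 3.38 and 2.69 CPM in WT and 4.83, 7.17 and 8.50 CPM in KO. KO and WT did not overlap in any state. In order of level, unstimulated WT was lowest, unstimulated KO and the 2 stimulated WT groups followed and overlapped one another, and the 2 stimulated KO groups were highest and overlapped. KO minus WT, Cmss1 differed by 0.76 ± 0.25 log2 units in unstimulated cells, 1.19 ± 0.23 with anti-CD3 and 1.17 ± 0.27 with both antibodies, or 1.69, 2.28 and 2.25 times the WT level.

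The rise of Cmss1 on anti-CD3 was 1.29 ± 0.23 (log2, SE) in KO (adjusted p = 0.000349) and 0.86 ± 0.25 in WT (adjusted p = 0.0183). The rise with both antibodies was 1.27 ± 0.24 in KO (adjusted p = 0.000393) and 0.85 ± 0.28 in WT (adjusted p = 0.0274). The WT calls depended on single libraries. On anti-CD3 the call was lost without WT anti-CD3 replicate 3 (0.61, adjusted p = 0.117) or WT unstimulated replicate 2 (adjusted p = 0.0715). With both antibodies it was lost without WT both-antibody replicate 2 (0.67, adjusted p = 0.205) or replicate 3 (adjusted p = 0.0611), or without WT unstimulated replicate 1 (0.0614) or 2 (0.0764). Cmss1 had 32 to 440 reads per library.

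**Figure D2:**
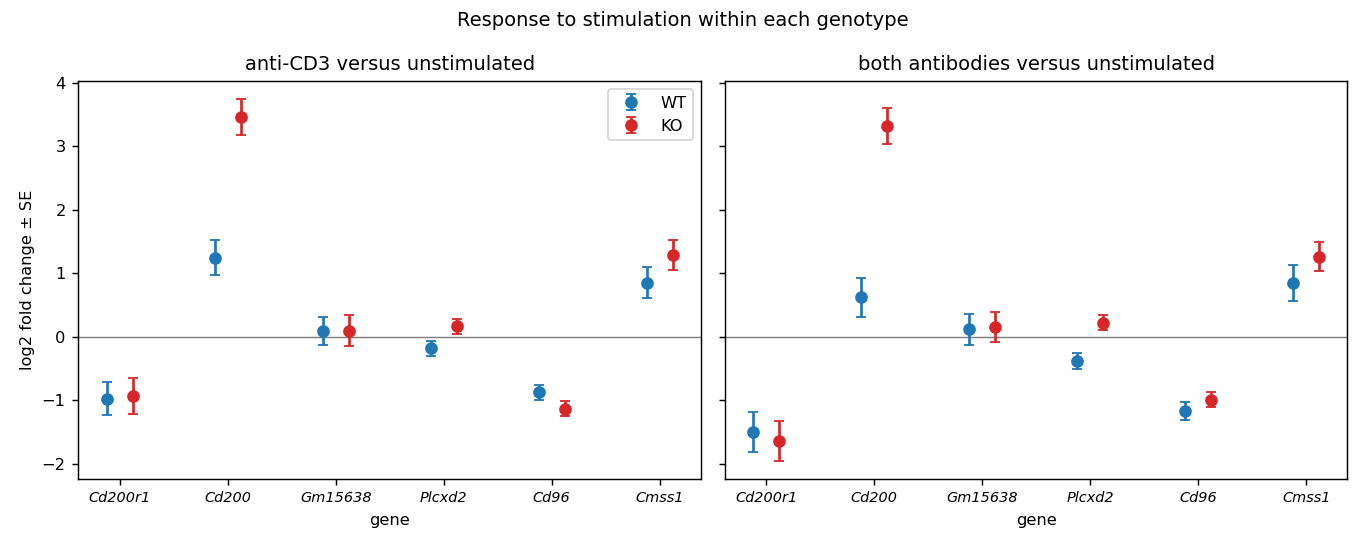
Log2 fold change of each of the 6 genes on stimulation, with its standard error, for anti-CD3 (left) and both antibodies (right) against unstimulated cells, in WT (blue) and KO (red). Cd200 lies at 3.46 in KO and 1.25 in WT with anti-CD3, Cd96 and Cd200r1 lie below 0 in both genotypes, and Gm15638 lies between 0.09 and 0.16 throughout.

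Counted together, 4 of the 6 genes passed the test on anti-CD3 in WT (Cd200 and Cmss1 up, Cd200r1 and Cd96 down), beside 24.4% of all genes tested. The same 4 passed in the same directions on anti-CD3 in KO, beside 36.9% of all genes, and with both antibodies in KO, beside 45.4%. With both antibodies in WT 4 passed (Cmss1 up; Cd200r1, Plcxd2 and Cd96 down), beside 34.1% of all genes. The median log2 fold change of the 6 genes in these comparisons was −0.04, 0.13, 0.19 and −0.13 in the order given, against −0.004, 0.02, 0.01 and −0.01 for all genes. Stimulated and unstimulated libraries did not overlap for 4 genes on anti-CD3 in WT and 5 in KO, beside 45.4% and 49.7% of all genes, and for 4 genes with both antibodies in WT and 5 in KO, beside 65.5% and 44.6%. The comparisons share the unstimulated libraries of each genotype. For both antibodies against anti-CD3, edgeR called 0 of the 6 genes in either genotype, as it called 0.0% of all genes. At an unadjusted p under 0.05 it found 1 of the 6 in WT and 0 in KO, and DESeq2 called 0 in both, against 517 genes in WT and 0 in KO among all genes.

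In the comparison that chose the genes, all 6 had KO and WT libraries that did not overlap in each state, with 1 above and 5 below in unstimulated cells and 2 above and 4 below in each stimulated state. Among all genes tested the share without overlap was 41.3%, 45.0% and 49.0%, and 25.4%, 15.3% and 16.1% of all genes passed the test, for unstimulated cells, anti-CD3 and both antibodies. For 5 of the 6 this held in all 3 states in 1 direction, beside 3.67% of all genes. Nothing is read from these counts, since the genes were picked for them. Of all genes, 124 (0.763%) passed in all 3 states in 1 direction, 94 higher and 30 lower in KO. The 5 of these within 10 Mb of Cblb were Cd200r1, Gm15638, Plcxd2 and Cd96, lower, and Cmss1, higher. They were picked for this contrast, so their passing restates the choice and is no test of them. DESeq2 left out Cd200r1 from these 5, and the GC correction left out Cd200r1 and Cmss1 and added Dubr and Slc35a5.

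Just outside the choice were 10 other genes of the stretch, 6 lower and 4 higher in KO. They passed the test in 2 of the 3 states in 1 direction. The share of all genes that did so was not counted, so nothing is read from this number. Of these 10, Slc35a5 encodes a nucleotide sugar transporter family protein. It had differences of −0.91, −0.78 and −0.18 log2 units in unstimulated cells, with anti-CD3 and with both antibodies. Dubr, a long noncoding RNA gene that also lies before Cblb, had −0.78, −0.88 and −0.48. Gm4737, the nearest tested gene on the far side of Cd96 at 32.7 kb, had 0.78, 0.70 and −0.36, so it was higher in unstimulated KO and with anti-CD3, and lower, without passing the test, with both antibodies. Btla, an inhibitory receptor gene 124.5 kb before Cd200, had −0.60, 0.18 and 0.86, and so ran from lower to higher in KO as Cd200 did. This run was not particular to Btla. The median of the 71 tested genes of the stretch other than the 6 was −0.225, −0.02 and 0.20. With the GC correction, described below, that median was −0.07, 0.01 and 0.01. On either side of Cd200r1, Gtpbp8 had −0.22, −0.12 and −0.04 and Cd200r4 had −0.19, −0.55 and 0.09, none past the test. Filip1l, which overlaps Cmss1, had −0.13, −0.18 and 0.31, and Tbc1d23 on its other side had −0.02, −0.06 and 0.34. With both antibodies both passed the test, higher in KO as Cmss1 was (adjusted p = 0.0494 and 0.0349). In that state 14 of the 71 were called higher and 1 lower, so this direction was common in the stretch. When only the groups compared were fitted, 0 genes of the stretch passed there.

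**Figure D3:**
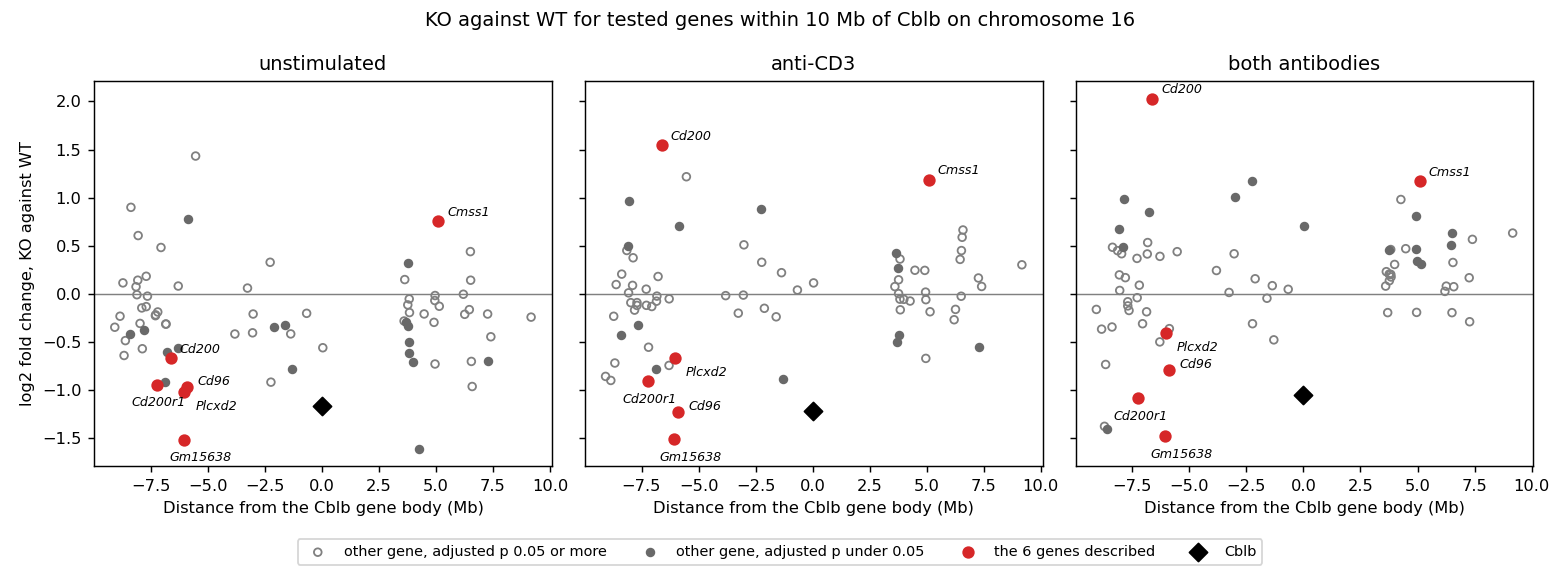
KO against WT log2 fold change of each tested gene within 10 Mb of Cblb against its distance from the Cblb gene body (negative before it), in 3 states; red points are the 6 genes, the black diamond is Cblb, and other genes are filled grey where the adjusted p is under 0.05. Gm15638 lies near −1.5 in all 3 panels, and Cd200 moves from −0.67 to 1.54 and 2.03.

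Of the other 71 tested genes within 10 Mb of Cblb, 17 passed the test in unstimulated cells (2 higher and 15 lower in KO), 13 with anti-CD3 (6 and 7) and 15 with both antibodies (14 and 1). These are 23.9%, 18.3% and 21.1% of the 71, against 21.3%, 18.3% and 18.3% of 394 genes on the rest of chromosome 16. Taking out genes picked for this contrast lowers the shares of the 71. Putting them back raises the shares for the same reason: those of all 77 were 28.6%, 24.7% and 27.3%. Of all genes, 25.4%, 15.3% and 16.1% passed. Since the choice fixed part of the 77, nothing is read from their shares. With the GC correction the splits of the 71 were 2 and 4, 12 and 7, and 8 and 8. None of the 71 passed in all 3 states in 1 direction by edgeR's adjusted p or by DESeq2, and 2 did at an unadjusted p under 0.05. The choice of the described genes, which took every gene of the stretch that did, fixed this count for edgeR. Within 5 Mb of Cblb, where none of the 6 described genes lies, 0 of 29 tested genes passed in all 3 states, beside 0.763% of all genes. Since the choice took every such gene, this 0 only restates where the described genes lie, and nothing is read from it. With the GC correction Dubr, which lies within 5 Mb of Cblb, passed in all 3 states. Differences of the same sign in all 3 states were found for 22 of the 71 (31.0%), against 27.4% of all genes. Without the correction, calls among these neighbours were mostly lower in unstimulated KO cells and mostly higher in KO cells given both antibodies. Among all genes, 2493 were higher and 1641 lower in the first of these states, and 1598 and 1023 in the second. With the correction the first leaning shrank to 2 higher and 4 lower, and the second was gone. With anti-CD3 the corrected calls were 12 higher and 7 lower.

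A trend with GC content moved with these counts. The GC tilt of a library compares GC-rich coding genes (56% GC or more) with GC-poor ones (40% or less), as the difference of their median deviations in log2 units. It was 0.16 to 1.19 in unstimulated KO and −0.77 to −0.32 in unstimulated WT, and 0.12 to 0.27 against −0.43 to −0.12 with anti-CD3. With both antibodies it was −1.17 to 0.36 in KO and 0.53 to 0.57 in WT. The 71 genes had a median GC content of 45.3%, against 49.1% for all genes tested. Their median deviation was −0.30 to −0.08 in unstimulated KO, 0.07 to 0.10 in unstimulated WT, −0.04 to 0.03 in KO and −0.03 to 0.08 in WT with anti-CD3, where the genotypes overlapped, and −0.06 to 0.21 in KO with both antibodies and −0.15 to −0.09 in WT with both antibodies. All 6 described genes kept the sign of their KO minus WT differences with the GC correction in each state. Beside the values given above, Cd200 had −0.55, 1.53 and 1.86 and Cmss1 had 0.70, 1.10 and 1.16 for unstimulated cells, anti-CD3 and both antibodies.

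**Figure D4:**
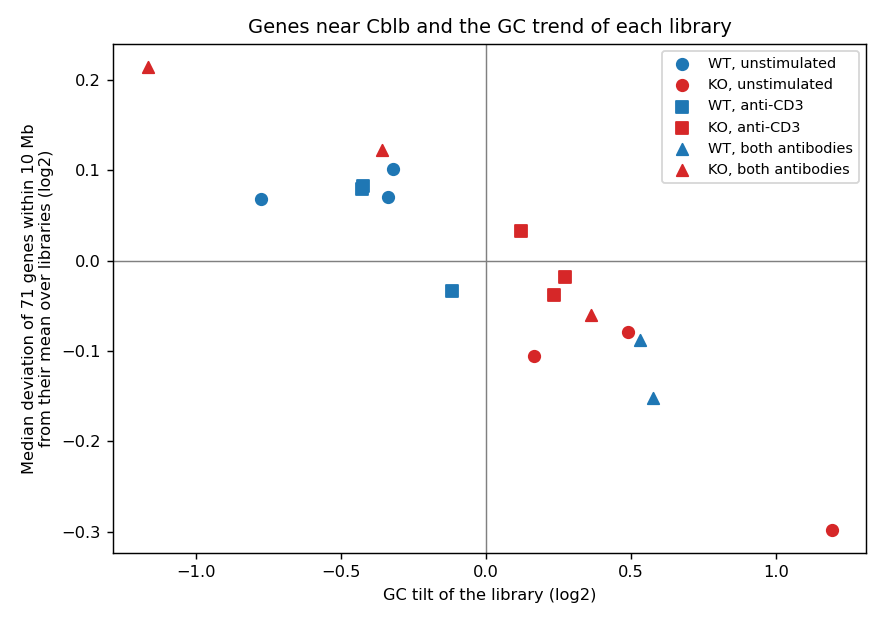
Median deviation (log2) of the 71 other tested genes within 10 Mb of Cblb from their mean over libraries, against the GC tilt of the library (log2); points are the 17 libraries, blue for WT and red for KO, with a shape for each state. Libraries of high tilt lie low, from 0.21 in the KO library of lowest tilt, −1.17, to −0.30 in the KO library of highest tilt, 1.19.

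In the counts on related genes that follow, the 6 described genes are left out. Of the other 7 genes listed for the CD200 receptor axis, 6 were tested (Cd200r2 was not). With both antibodies in KO, 1 rose (Rasa1) and 3 fell (Dok2, Inpp5d and Dok1), beside 45.4% of all genes called and with a list median of −0.29 against 0.01 for all genes. Dok2, the adaptor that CD200R1 recruits, fell by 1.32 ± 0.18 log2 units there (adjusted p = 2.68e-05), and Inpp5d, which encodes the phosphatase SHIP1, fell by 0.93 ± 0.12 (adjusted p = 1.35e-05). The rise of Rasa1 there (0.65 ± 0.13) was lost with the GC correction (0.10, adjusted p = 0.224). On anti-CD3 in KO, 1 rose (Rasa1) and 2 fell (Dok2 and Inpp5d), beside 36.9% of all genes, with a median of −0.20 against 0.02. In WT the calls were 1 on anti-CD3 (Inpp5d, down) and 1 with both antibodies (Cd200r3, up, adjusted p = 0.0479), beside 24.4% and 34.1% of all genes. Both WT calls rested on single libraries: each of these counts ran from 0 to 2 without any 1 library, and Cd200r3 was at 1.33 (adjusted p = 0.336) without WT both-antibody replicate 2, against 1.91 with it.

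Between genotypes, 3 of these 6 genes were higher in unstimulated KO (Dok2, Inpp5d and Dok1) and 1 was lower (Rasa1), beside 25.4% of all genes called. After correction for GC content 1 gene passed, Dok2, at 0.43 against 0.90 without it, and Rasa1 went from −0.48 to −0.01 (adjusted p = 0.958). Without KO unstimulated replicate 2, or without WT unstimulated replicate 1, 1 gene passed. With anti-CD3 edgeR called 0 of the 6, with 1 at an unadjusted p under 0.05, 1 called by DESeq2 and 2 when only the groups compared were fitted, beside 15.3% of all genes. With both antibodies 1 was lower (Dok2, −0.63 ± 0.20, adjusted p = 0.0434), beside 16.1% of all genes. The count was 4 without KO both-antibody replicate 1 and 2 without KO unstimulated replicate 2. The call of Dok2 was lost when only the groups compared were fitted (adjusted p = 0.258), without both libraries of the most extreme GC trend (0.0566), and without any 1 of 13 libraries, among them WT both-antibody replicates 2 (0.183) and 3 (0.186) and KO both-antibody replicate 3 (0.14).

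Of the other 8 genes listed with CD96 (TIGIT, CD226, their ligands and relatives), 6 were tested (Nectin1 and Nectin2 were not). On anti-CD3 in WT, 3 rose (Crtam, Tigit and Nectin3) and 2 fell (Cd226 and Pvr), beside 24.4% of all genes called. Tigit and Nectin3 are low genes, which the medians below include. In WT, Tigit went from 0.198 to 0.753 CPM and Nectin3 from 0.0631 to 0.291 CPM, against 53.0 to 154 CPM for Crtam. Crtam, which encodes an immunoglobulin superfamily receptor of activated T cells, rose by 1.54 ± 0.13 log2 units in WT (adjusted p = 1.64e-07) and by 1.99 ± 0.13 in KO (adjusted p = 5.49e-09). Cd226, the activating receptor that competes for the same ligands, fell by 0.66 ± 0.11 in WT (adjusted p = 0.000205) and by 0.54 ± 0.11 in KO (adjusted p = 0.000773). In KO 3 rose and 3 fell on anti-CD3, and with both antibodies 3 rose and 2 fell in each genotype. The medians of the 6 genes were 0.77 and 0.54 in WT and 0.33 and 0.40 in KO, for anti-CD3 and both antibodies. When only the groups compared were fitted, 4 and 3 passed in each genotype. The filter on low counts was applied again there, so fewer than 6 may have been tested.

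The calls of Crtam and Pvr in these 4 comparisons held without any 1 library, while those of Nectin3, Tigit and, in 1 comparison, Cd226 did not. Nectin3 was lost in WT on anti-CD3 (adjusted p = 0.0356) without WT anti-CD3 replicate 1 (0.0599) or 2 (0.162) or WT unstimulated replicate 1 (0.149) or 2 (0.0683), and with the replicate number as a block (0.0501). With both antibodies in WT it was lost without WT both-antibody replicate 3 (0.0962). In KO it was lost without KO unstimulated replicate 2, on anti-CD3 (0.102) and with both antibodies (0.122). Tigit was lost in KO on anti-CD3 without KO anti-CD3 replicate 1 (0.0601) or KO unstimulated replicate 2 (0.0569), and with both antibodies without KO both-antibody replicate 1 (0.0632) or KO unstimulated replicate 2 (0.0686). In WT with both antibodies Tigit was lost without WT both-antibody replicate 2 (0.117). Cd226 was lost in KO with both antibodies (adjusted p = 0.0293) without KO both-antibody replicate 1 (0.117) or 2 (0.0536) or KO unstimulated replicate 1 (0.0769) or 3 (0.069).

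Between genotypes, 1 of these 6 genes was lower in unstimulated KO (Cd226, −0.47 ± 0.11), 1 was higher and 1 lower with anti-CD3 (Crtam, 0.57 ± 0.13, and Cd226, −0.35 ± 0.11), and 1 was higher with both antibodies (Crtam, 0.80 ± 0.15), beside 25.4%, 15.3% and 16.1% of all genes. Cd226 in unstimulated cells was at −0.06 with the GC correction (adjusted p = 0.613) and was lost without KO replicate 2 (0.0645) or WT replicate 1 (0.0539). With anti-CD3 it was lost without any 1 of 6 libraries (adjusted p of 0.054 to 0.15): KO anti-CD3 replicates 1, 2 and 3, WT anti-CD3 replicates 2 and 3 and WT both-antibody replicate 3. Crtam was lost with anti-CD3 without KO replicate 3 (0.0506), and with both antibodies without WT replicate 2 (0.0696) or 3 (0.0847) or when only the groups compared were fitted (0.233).

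Of the 3 genes with a phospholipase C X domain of this family, Plcxd1 and Plcxd2 were tested. Plcxd1 had KO minus WT values of 0.28 ± 0.23, 0.22 ± 0.22 and −0.27 ± 0.25 log2 units, with adjusted p of 0.371, 0.547 and 0.494, where Plcxd2 had −1.01, −0.67 and −0.41. Cmss1 was listed with 25 genes of the small subunit processome, the particle that builds the small ribosomal subunit. Of these 25, 23 rose and 0 fell on anti-CD3 in KO (median 0.78 against 0.02 for all genes), and 20 rose and 0 fell with both antibodies in KO (median 0.73 against 0.01), beside 36.9% and 45.4% of all genes called. Noc4l rose in KO on anti-CD3 by 1.22 ± 0.12 log2 units (adjusted p = 4.78e-07) and Nol10 by 1.34 ± 0.14 (adjusted p = 8.84e-07), next to 1.29 ± 0.23 for Cmss1. In WT 7 rose on anti-CD3 (median 0.22) and 6 with both antibodies (median 0.12), and 0 fell, beside 24.4% and 34.1% of all genes. The WT count on anti-CD3 was 13 with the GC correction and 17 when only the groups compared were fitted. It was 4 without any 1 of the WT anti-CD3 replicates or of WT unstimulated replicates 1 and 3, and 12 without KO both-antibody replicate 1 or 3. The WT count with both antibodies was 10 when only the groups compared were fitted.

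Between genotypes 6 of the 25 were higher in unstimulated KO (median 0.04), 21 with anti-CD3 (median 0.52) and 17 with both antibodies (median 0.59), beside 25.4%, 15.3% and 16.1% of all genes, and 0 were lower. In unstimulated cells the count was 1 with the GC correction and 2 without KO unstimulated replicate 2 or WT unstimulated replicate 1, and Fbl went from 0.54 to 0.17 (adjusted p = 0.198) and Noc4l from 0.52 to −0.14 with the GC correction. With anti-CD3 it was 10 without KO anti-CD3 replicate 3. With both antibodies it was 0 when only the groups compared were fitted, 1 without WT both-antibody replicate 2 and 0 without replicate 3, and 21 with the GC correction.

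The genes whose log2 CPM followed each described gene most closely over the 17 libraries are given next. Only non-overlapping genes whose mean log2 CPM was 2 or more were compared. Those named on chromosome 16 are Cd96, Slc35a5 and Cblb. The share of all compared genes that lie near Cblb was not counted, so nothing is read from these positions. These correlations are over libraries that share genotype, state and GC trend, and are given as a description. For Cd200 the closest genes were Psmd11 (Pearson r 0.979), Fabp5 (0.979) and Gm15459 (0.977). For Cd96 they were Lypd6b (0.965), Lbr (0.962) and Rbl2 (0.961), and for Cd200r1 Pramef8 (0.943), Cd96 (0.896) and Il1rl2 (0.893). For Plcxd2 they were Slc35a5 (0.903), which lies in the same stretch of chromosome 16, Itga6 (0.897) and Dcaf6 (0.895). For Gm15638 they were Itga6 (0.928), Cblb (0.926) and Usp28 (0.919), and for Cmss1 Ybx1 (0.964), Mthfd2 (0.960) and Eif3c (0.953). Among the 6 genes themselves, Cmss1 and Cd96 had an r of −0.908 and Cmss1 and Cd200 one of 0.842, while Cd200 and Plcxd2 had one of −0.251.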

How the data were processed

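Ribosomal RNA was removed from the RNA of CD8+ T cells, and paired-end libraries were made with a kit that marks strand, per the labels' protocols. The authors deposited whole-number read counts per gene for each library, and the submitters' processing notes name STAR 2.5.2, RSEM 1.3.0 and GRCm38 (mm10). No source used here says how strand was set or whether RSEM's estimates were rounded. Symbols, positions and GC content came from GENCODE M21 (53650 of 53679 identifiers matched), and promoter sequences from RefSeq on GRCm38.p6. A table that joins the same libraries was checked to hold identical counts for 17 of 17 and was not used further.

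The labels gave each library its group and replicate number. Counts were fitted with edgeR 4.0.16 in R 4.3.3: genes kept by filterByExpr by group (16246 tested), TMM scaling, robust quasi-likelihood models over all 17 libraries with 1 coefficient per group, and Benjamini-Hochberg adjustment within a comparison at 0.05. The common biological coefficient of variation was 0.153. CPM used TMM-scaled totals, and levels between genes were compared per kilobase of merged exon. The GC correction used as offsets a loess fit (span 0.3) per library of expression level against GC content. DESeq2 1.42.0 was an alternative. The code was tested on simulated counts. Figures used matplotlib 3.10.9.

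The members and lists were chosen with earlier results of these data known. Named genes are the 6 genes and Cblb, genes of the stretch called in 1 direction in all 3 states, the 3 genes most correlated with each, and up to 3 genes per direction and comparison from each list. The neighbouring genes, Slc35a5 and Dubr among them, and Dok1 with both antibodies were named after their values were seen. A list of 10 activation genes was used as a check of stimulation: on anti-CD3 9 rose and 1 (Cd69) fell in WT, and 9 rose and 0 fell in KO.

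The summed level of the B cell marker list is not reported here.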

Additional observations from a re-analysis of the deposited data

Results flagged for a closer look

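Cd200 differed between KO and WT in opposite directions in different states. The KO minus WT difference was −0.67 log2 units in unstimulated cells, with every KO library below every WT library, and 1.54 with anti-CD3 and 2.03 with both antibodies, with every KO library above every WT library. The difference between states was not tested. Of all genes, 2.55% had groups that did not overlap and lay in opposite directions in unstimulated cells and with anti-CD3, and 18.4% did in unstimulated cells and with both antibodies.

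Plcxd2 went in opposite directions on stimulation with both antibodies: 0.23 log2 units in KO, with every stimulated library above every unstimulated one, and −0.38 in WT, with every stimulated library below. The difference was not tested, and 9.02% of all genes show such a pattern. With the GC correction both values were below 0, at −0.03 in KO and −0.19 in WT.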

How the results depend on the processing

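The KO minus WT differences of the 6 genes kept their direction under the 26 alternatives tried. Depth limits Cd200r1, Cmss1 and Gm15638, which had at most 198, 440 and 431 reads in any library. The number of described genes called was 3 to 4 of 6 without any 1 library for anti-CD3 in WT and in KO, 4 throughout for both antibodies in KO, and 2 to 4 for both antibodies in WT, with 2 without WT both-antibody replicate 3, WT unstimulated replicate 1 or WT unstimulated replicate 2. For both antibodies against anti-CD3 it was 0 under all alternatives in either genotype.

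The count of all 77 tested genes within 10 Mb of Cblb depended on the processing, and the cause was not tested. In unstimulated cells it was 22, and 9 with the GC correction, 11 with the replicate block and the GC correction, 10 within 5 Mb (fewer genes), and 5 to 29 without any 1 library (5 without KO unstimulated replicate 2, 7 without WT unstimulated replicate 1). With anti-CD3 it was 19, and 30 when only the groups compared were fitted, 6 within 5 Mb, and 8 to 22 without any 1 library (11 and 8 without KO replicates 1 and 3, 12 and 8 without WT replicates 1 and 3). With both antibodies it was 21, and 13 with no filter on low counts, 0 when only the groups compared were fitted (fewer libraries), 12 without both libraries of the most extreme GC trend, 7 within 5 Mb, and 0 to 29 without any 1 library (12 and 8 without KO replicates 2 and 3, 0 and 3 without WT replicates 2 and 3; the lone WT library is then taken to vary like the other groups).

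Noc4l, higher by 0.52 in unstimulated KO, was at −0.14 with the GC correction and −0.16 with the replicate block and the GC correction. Over all genes in unstimulated KO against WT, 4134 were called, and 928 with the GC correction. Pairing by replicate number was not evident, but this check cannot exclude it. Deviations of libraries with the same number had a median r of 0.02 over 40 pairs, against −0.004 over 80 pairs with different numbers. Of 17 libraries, 7 correlated best with their own number, and the rate without pairing was not worked out. With the replicate block, the fall of Plcxd2 in WT with both antibodies was −0.38 with an adjusted p of 0.051, and no other call of the 6 genes was lost.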
